A study of Mus musculus with 2 samples.

Results

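Committed myoblasts are the mononucleated cells that have left the pool of muscle progenitors and are turning into skeletal muscle. Some of the cells selected here as myoblasts still held progenitor transcripts. The selected cells made up 482 of the 16418 cells (2.94%) measured in the aorta-gonads-mesonephros region (AGM) of mouse embryos at embryonic day 11 (E11). They were selected on their transcripts of Myog and Mymx: a cell counted as a myoblast when its unique molecular identifiers (UMIs, each standing for 1 captured transcript) of these genes summed to 2 or more. All cells held at least 2000 UMIs, with under 10% of them from mitochondrial genes. The levels of Myog and Mymx are therefore given as a description of the selection and not as a result.

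The study asked how loss of the receptor PDGFRB alters the cells around the embryonic aorta, and whole AGMs were dissociated with collagenase and run on the 10x Chromium 3′ platform. There was 1 library from PDGFRB +/+ embryos (WT) and 1 from PDGFRB -/- embryos (KO), both at E11, from a line kept as heterozygotes on a C57BL/6J background. The KO allele is a germline deletion carried by every cell of the embryo, and no reporter, sorting or treatment was used for these libraries, each loaded for 7000 cells. How many embryos went into each library is not given in the sources used here.

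The WT library held 179743201 UMIs and the KO library 174597654, and 8253 and 8165 cells passed the filters. With 1 library per genotype there were no replicates, so no test was made and no p-value is given. Levels are given as CPM, for which the UMIs of each gene were added up over all cells of a population and scaled to the same total in every population. The 95% intervals in parentheses are exact Poisson intervals for levels and exact binomial (Clopper-Pearson) intervals for shares, and they cover counting error only, while cells and embryos vary more. The WT cells expressed Xist and the KO cells the Y-linked genes: in myoblasts Xist reached 819 CPM in WT and 0.121 in KO (1 UMI), and Ddx3y and Eif2s3y had no UMI in WT and 50.7 and 54.4 CPM in KO. Genotype, sex and library thus cannot be told apart in any comparison of WT with KO.

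Skeletal muscle of the trunk forms from the dermomyotome of the somites, whose progenitors carry the paired-box factors Pax3 and Pax7. Myf5 and Myod1, basic helix-loop-helix factors, commit these cells to the muscle lineage, and Myog, a factor of the same family, drives their terminal differentiation. Differentiating myoblasts leave the cell cycle with the help of the inhibitors Cdkn1a (p21) and Cdkn1c (p57), fuse through the membrane proteins Mymk (myomaker) and Mymx (myomixer), and build sarcomeres from actin, myosin, troponin and titin.

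The selection gave 152 WT and 330 KO myoblasts. Myog and Mymx were both seen in 88 WT and 199 KO cells, Myog without Mymx in 62 and 130, and Mymx without Myog in 2 and 1. A WT myoblast held 2 to 139 UMIs of the pair with a median of 24, and a KO myoblast 2 to 183 with a median of 19. Most of the selected cells thus lay far above the threshold.

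Cells at the threshold had far less titin than cells well above it. Just outside it, the 98 WT cells with 1 UMI of the pair had 29.5 CPM of titin (Ttn), 20.2 of Myod1 and 12.0 of Pax7, and the 220 KO cells 33.5, 29.2 and 22.7 CPM. Just inside it, the 19 WT cells with 2 UMIs had 42.7, 81.3 and 87.4 CPM, and the 43 KO cells 42.0, 95.3 and 34.8 CPM. With 30 or more UMIs, the 69 WT cells had 1942 CPM of Ttn and 11.8 of Pax7, and the 137 KO cells 3156 and 9.11.

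Few cells of lineages that should not make Myog passed the selection. Among cells with over 10% globin UMIs, 2 of 758 in WT (0.264%, 0.0320 to 0.9498%) and 2 of 221 in KO (0.905%, 0.110 to 3.23%) would have been selected, at median depths of 16781.5 and 19738 UMIs. Among cells with at least 5 UMIs of macrophage or of endothelial markers, no cell was selected in either library. The intervals of these shares reached up to 2.11% of 173 (WT) and 2.53% of 144 (KO) macrophage-marked cells. For endothelial-marked cells they reached up to 3.33% of 109 (WT) and 3.39% of 107 (KO). The myoblasts themselves were deep: medians of 22717.5 UMIs and 4525 genes in WT and 19096.5 UMIs and 3986.5 genes in KO, against 13321 and 12391 UMIs over all cells. Of the cell barcodes, 20 occurred in both libraries, and 0 of these were myoblasts in both.

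The selected cells carried muscle markers that the selection had not used, as their label says. Ttn, the giant spring protein of the sarcomere, had 1187 (1154 to 1220) CPM in WT and 1763 (1734 to 1792) CPM in KO myoblasts, against 0.411 and 1.504 CPM in the cells that were neither myoblasts nor progenitors. Tnnt1, the troponin T of slow skeletal muscle, had 1633 (1595 to 1671) and 2024 CPM (1993 to 2054), against 15.5 and 25.5 CPM in those other cells. At least 1 UMI of Ttn was present in 69.1% (WT) and 74.2% (KO) of the myoblasts, and in 0.567% and 1.64% of the other cells, whose median depths were 13099 and 11979.5 UMIs. With every cell thinned to 2000 UMIs the myoblast shares were 50% and 55.8%, and those of the other cells 0.0504% and 0.360%.

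Markers of macrophages, endothelium and heart were scarce in the myoblasts, and those of mesenchyme, sclerotome and blood were more abundant. Of the 6 macrophage markers the sum was 1.39 CPM in WT and 1.45 in KO, with Adgre1 at 0 in both libraries and C1qb the most abundant, and of the 5 endothelial markers 2.31 and 3.03 CPM, with Emcn the most abundant. The 4 heart markers summed to 7.17 and 6.43 CPM, against 4.03 and 1.97 CPM in the other cells, with Nppa at 0 in both and Myh6 (WT) and Tnni3 (KO) the most abundant. Neural markers summed to 51.2 and 36.4 CPM, epithelial ones to 19.7 and 9.70 CPM (Krt8), sclerotome ones to 150 and 217 CPM (Col2a1, with Nkx3-2 at 0), smooth muscle ones to 83.6 and 134 CPM (Tagln) and mesenchyme ones to 605 and 331 CPM (Col3a1). Erythroid markers, nearly all of it embryonic globin led by Hbb-y, summed to 4621 and 1857 CPM, and globin in the myoblasts stood at 12.3% and 9.79% of its level in free RNA. The part of free RNA and of other cells in the lower mesenchyme and globin sums of KO was not tested. At least 3 UMIs of the defining markers of another type were seen in 29 WT (19.1%) and 59 KO myoblasts (17.9%). Those of sclerotome, the neighbouring compartment of the somite, were the most frequent, with 14 and 43 cells.

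The proteins of the Myog family bind E-boxes, the letters CANNTG. RefSeq sequences of the 250 bases before the transcription start were found for Myog, Ttn, Tnnt1 and Chrna1, the muscle acetylcholine receptor subunit, but Mymx and Mymk had no entry. They were searched on both strands for CAGCTG, which reads the same on both strands, for CAGGTG with its complement CACCTG, and for the motif of MEF2, none of which overlapped another. The 3 promoters that held an E-box of these kinds are shown from 5′ to 3′ on the gene's own strand (all on the minus strand of GRCm38.p6), with the E-boxes in capitals, at chr2:73580339-73580588 for Chrna1, chr2:76982548-76982797 for Ttn and chr7:4515976-4516225 for Tnnt1.
Chrna1: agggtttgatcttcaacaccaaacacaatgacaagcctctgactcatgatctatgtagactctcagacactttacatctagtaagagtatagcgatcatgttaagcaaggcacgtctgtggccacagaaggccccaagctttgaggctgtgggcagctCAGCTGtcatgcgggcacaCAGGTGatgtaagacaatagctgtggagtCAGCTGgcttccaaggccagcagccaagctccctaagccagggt
Ttn: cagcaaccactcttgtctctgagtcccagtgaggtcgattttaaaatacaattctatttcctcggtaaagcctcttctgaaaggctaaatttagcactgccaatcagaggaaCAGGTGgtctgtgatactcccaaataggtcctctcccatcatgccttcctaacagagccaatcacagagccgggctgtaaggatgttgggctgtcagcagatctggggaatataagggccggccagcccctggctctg
Tnnt1: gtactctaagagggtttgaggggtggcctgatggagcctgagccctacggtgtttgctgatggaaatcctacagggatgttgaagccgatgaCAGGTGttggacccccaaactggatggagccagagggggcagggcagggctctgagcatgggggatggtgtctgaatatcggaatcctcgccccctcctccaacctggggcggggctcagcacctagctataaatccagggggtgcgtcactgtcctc
In Chrna1, CAGCTG began at -92 and -44 and CAGGTG at -73, counted from the transcription start. The Ttn promoter had 1 CAGGTG at -138 and 1 MEF2 motif at -166, and the Tnnt1 promoter 1 CAGGTG at -158. That of Myog (chr1:134289754-134290003, plus strand) had none of the 3 searched kinds. It held CAGTTG, which is of the form CANNTG but was not searched for. A single pattern stood for the MEF2 motif, so other forms of it were not searched for either. Over all 32851 mouse promoters of this length, 13.0% held CAGCTG and 1.26% held it at least 2 times, 17.2% held CAGGTG or CACCTG and 2.92% the MEF2 motif. These matches are a description of the letters and not of bound sites.

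The KO library held the larger share of myoblasts. They were 1.84% (1.56 to 2.16%) of the WT cells and 4.04% (3.62 to 4.49%) of the KO cells, which makes a KO to WT ratio of 1.13 (0.85 to 1.42) on the log2 scale. With every cell thinned to 2000 UMIs before the selection, 83 WT cells (1.01%) and 182 KO cells (2.23%) were left, and the log2 ratio was 1.15 (0.77 to 1.54). The share was thus higher in KO at equal depth too, in 1 library against 1.

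Muscle progenitors were more frequent in KO as well. These were cells with 2 or more UMIs of Pax7 and Myf5 and none of Myog or Mymx, 65 cells (0.788%, 0.608 to 1.00%) in WT and 117 (1.43%, 1.19 to 1.71%) in KO, a log2 ratio of 0.86 (0.41 to 1.32). For each progenitor there were 2.34 myoblasts in WT and 2.82 in KO.

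Against the progenitors of the same library, more genes passed 2-fold higher in the myoblasts than lower. Of 8579 genes with at least 50 UMIs summed over the myoblasts and progenitors of each library, 312 (3.64%) were at least 2-fold higher in myoblasts in both libraries and 36 (0.42%) at least 2-fold lower. The myoblasts held more UMIs, 4320594 against 1853714 in WT and 8248472 against 3061878 in KO. Genes such as Myh3, with 2 UMIs in WT progenitors, passed the limit through the myoblasts alone. The balance of higher and lower genes is thus partly set by this limit. The 10 with the largest difference in both libraries, apart from Myog and Mymx, were Myh3, Il17b, Myl4, Tnnc1, Mylpf, Tnnc2, Hspb2, Myl1, Acta1 and Sln. Of these, 8 encode parts of the contractile apparatus or of its calcium pump, while Il17b encodes a cytokine and Hspb2 a small heat shock protein of muscle. Il17b had 136 CPM in WT and 202 CPM in KO myoblasts, 0.539 CPM (1 UMI) and 0.980 CPM in progenitors, and a UMI in 40.8% of the WT myoblasts against 1.49% of the other WT cells.

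**Figure D1:**
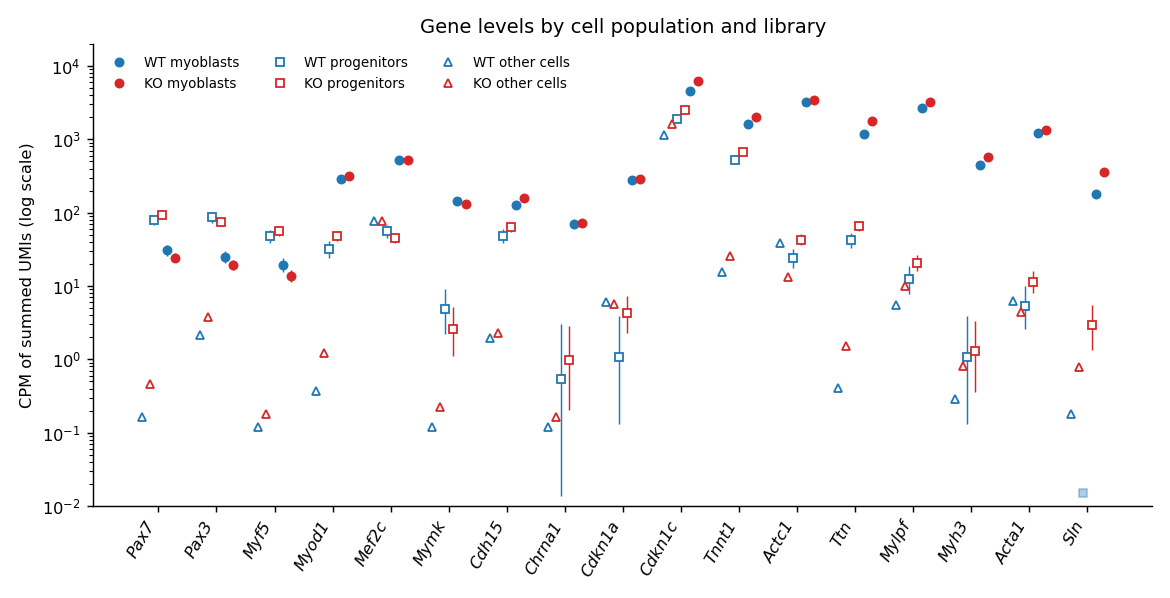
Levels of 17 genes in CPM of summed UMIs on a log axis, for the other cells (triangles), the progenitors (squares) and the myoblasts (filled circles) of the WT (blue) and KO (red) libraries, with 95% Poisson intervals for progenitors and myoblasts; a faded symbol at the lower edge stands for 0 UMIs. Pax7, Pax3 and Myf5 lay higher in progenitors, and the genes from Myod1 to Sln lay higher in myoblasts of both libraries, with Ttn at 1187 CPM (WT) and 1763 CPM (KO).

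Transcription factors of muscle differed from the progenitors in both directions, with Pax3, Pax7 and Myf5 lower in the myoblasts and Myod1, Mef2c and Hes6 higher. Pax7, on which the progenitors had been chosen, had 30.6 CPM in WT and 24.2 CPM in KO myoblasts against 79.3 and 93.1 CPM in progenitors, and Myf5, chosen likewise, 19.4 and 13.8 against 47.5 and 56.8. Pax3, which the choice did not use, had 25.2 and 19.4 CPM against 86.3 and 75.1. Myod1 had 286 and 320 CPM against 31.8 and 48.7, Mef2c, a factor that works with the Myog family at muscle genes, 529.6 and 524 against 56.1 and 45.4, and Hes6, which counters the repressor Hes1, 291 and 357 against 57.2 and 83.6. Tead4, another partner of muscle genes, stood at 8.80 and 8.49 CPM against 1.62 and 2.61. Of the 18 factors of this list that could be compared, 5 were past 2-fold higher and 5 past 2-fold lower in both libraries, against 3.64% and 0.42% of all genes. The lower ones include Pax7 and Myf5, whose direction was fixed by the choice of the progenitors.

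The 10 genes most reduced against progenitors, apart from Pax7 and Myf5, were Pax3, Ptx3, En1, Hey1, Hbb-bs, Dmrt2, Fap, Dkk2, Islr2 and Plk2. They include En1 and Dmrt2, factors of the dermomyotome, and Hey1, a target of Notch. En1 had 33.1 and 29.9 CPM in the myoblasts of WT and KO and 105 and 119 CPM in their progenitors. Hbb-bs, an adult-type globin, is a gene of red blood cells, which is given here because the rule named it.

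Some genes of fusion and adhesion were higher in the myoblasts, Mymk and Cav3 by the most among those named here. Mymk, needed for myoblasts to merge, had 144 (133 to 155) CPM in WT and 131 (123 to 139) CPM in KO myoblasts, 4.86 and 2.61 CPM in progenitors, and a UMI in 57.9% of the myoblasts of each library against 0.202% and 0.347% of the other cells. Cdh15, the M-cadherin of muscle precursors, had 129 and 160.2 CPM against 48.6 and 63.0. Jam3, an adhesion molecule found on many cells, had 167 and 195 CPM against 65.8 and 54.2, and Cav3, the caveolin of muscle, 22.7 and 42.5 CPM with no UMI in any progenitor. General adhesion genes such as the integrin Itgb1 (191 and 193 CPM against 202 and 206) lay close to the progenitors. Of 19 genes of fusion and adhesion, 6 were past 2-fold higher and none lower, against 3.64% and 0.42% of all genes. Their medians were -0.08 in WT and 0.14 in KO.

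Contractile genes made up much of what set the myoblasts apart. Their summed level was 20139 CPM in WT and 24499 CPM in KO myoblasts, 2209 and 2683 CPM in progenitors, and 1159 and 1193 CPM in the other cells. Of the 40 genes of this list 37 had enough UMIs, and 36 of these were past 2-fold higher than in progenitors in both libraries and none lower, with a median log2 ratio of 5.24 in WT and 5.93 in KO, where genes with no UMI in progenitors entered at a floor of 3 UMIs. The medians over all genes were -0.07 and -0.15, and 3.64% of all genes were past 2-fold higher in both libraries. The exception was Tpm1, a tropomyosin of many cell types, with 1288 and 1560.3 CPM against 1151 and 1317.

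Both skeletal and cardiac isoforms were present, as is usual in embryonic muscle. Actc1, the cardiac α-actin that early skeletal muscle also makes, had 3255 CPM in WT and 3438 CPM in KO myoblasts against 24.3 and 43.1 in progenitors, and Acta1, the α-actin of later skeletal muscle, 1215 and 1339 against 5.39 and 11.4. Myh3, the embryonic myosin heavy chain, had 441 and 584 CPM, while its 2 UMIs in WT and 4 in KO progenitors made 1.08 and 1.31 CPM. Myh7, the slow heavy chain, stood at 45.8 and 67.9 CPM, and Myh8, the perinatal chain, at 68.7 and 77.5 CPM. The light chains Mylpf (2657 and 3199 CPM), Myl1 (1383 and 1714) and Myl4 (673 and 963) and the troponins Tnnc1 (958 and 1027), Tnnc2 (720 and 812), Tnni1 (622 and 658) and Tnnt2 (284 and 365) were all over 10 times above the progenitors of their library. Nebulin (Neb), the ruler of the thin filament, had 421 and 629 CPM against 3.24 and 18.6, and desmin (Des), the muscle intermediate filament, 266 and 342 against 57.2 and 65.0.

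Most genes of calcium handling were higher in the myoblasts. Of the 18 genes of calcium handling 14 had enough UMIs, and 12 of these were past 2-fold higher than in progenitors in both libraries, against 3.64% of all genes. They include the release channel Ryr1 (47.7 and 52.5 CPM against 11.3 and 14.4), the pump Atp2a1 (104 and 107 against 3.78 and 5.88), the store protein Casq2 (94.0 and 104 CPM, no UMI in progenitors), the coupling protein Stac3 (52.1 and 64.0 against 1.62 and 0.980) and Sln, a small inhibitor of the pump (182 and 363 CPM against 0 and 2.94). The ubiquitous pump Atp2a2 lay level with the progenitors, at 84.7 and 93.1 CPM against 86.8 and 87.5.

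The acetylcholine receptor was of the fetal kind. Chrna1 had 69.4 CPM in WT and 72.9 CPM in KO against 0.539 (1 UMI) and 0.980 in progenitors, Chrnb1 30.1 and 35.2 against 10.2 and 6.53, and Chrng, the subunit of the fetal receptor, 48.4 and 43.2 against 2.70 and 4.25. Chrne, which replaces Chrng after birth, had no UMI in the myoblasts of either library. Musk, the receptor kinase that organises the synapse, had 5.56 and 10.4 CPM against 3.78 and 1.96, and its scaffold partner Rapsn 72.4 and 86.7 against 36.7 and 47.7. Over all genes 3.64% were past 2-fold higher in both libraries. Of the 12 genes of the junction 7 had enough UMIs, and 4 of these were past 2-fold higher in both libraries. In the dystrophin complex, which ties the cytoskeleton to the matrix, 3 of 11 genes were, while dystrophin itself (Dmd) had 15.3 and 27.6 CPM against 12.9 and 9.80.

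Some genes of cell cycle exit were far higher in the myoblasts. Cdkn1a had 277.5 (262 to 294) CPM in WT and 286 (275 to 298) CPM in KO myoblasts against 1.08 and 4.25 in progenitors, and Cdkn1c, an imprinted gene, 4631 and 6261 against 1876 and 2521. Rb1, which holds E2F factors in check, had 44.9 and 57.2 CPM against 8.09 and 5.88, and Gadd45g 84.5 and 116 against 15.1 and 16.3. Of the 13 genes of exit, 4 were past 2-fold higher and none lower, against 3.64% and 0.42% of all genes.

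Many myoblasts still carried transcripts of proliferation. Of 20 genes of S phase none was past 2-fold in both libraries, with medians of -0.51 in WT and -0.67 in KO, and of 20 genes of G2 and mitosis none, with medians of -0.21 and -0.59. Their sum was 3192 CPM in WT and 2614 CPM in KO, against 3604 and 3971 in progenitors. After thinning to 2000 UMIs, a UMI of Mki67 or Top2a was found in 41.4% (33.5 to 49.7%) of the WT and 33.3% (28.3 to 38.7%) of the KO myoblasts, against 56.9% and 56.4% of the progenitors and 44.4% and 41.7% of the other cells. Unthinned shares for the myoblasts were 70.4% and 57.6%.

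Of the Notch genes, the ligand Dll1 was higher and the target Hey1 lower in the myoblasts. Dll1, the ligand that holds neighbouring progenitors undifferentiated, had 14.6 CPM in WT and 14.8 CPM in KO myoblasts against 1.08 and 1.31 in progenitors and 0.539 and 0.697 in the other cells. The target Hey1 had 14.6 and 7.88 CPM against 44.2 and 25.1, and the target Hes1, which was not past 2-fold, 105 and 64.9 against 149 and 117. Of 10 genes of the pathway, 1 was past 2-fold higher, Dll1, and 1 lower, Hey1, against 3.64% and 0.42% of all genes.

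Metabolic and imprinted genes showed single large differences. Of 15 genes of energy metabolism, 6 were past 2-fold higher than in progenitors in both libraries, against 3.64% of all genes: Ckb, Eno3, Pgam2, Pygm, Mb and Fabp3. Fabp3, the fatty acid carrier of muscle, had 166 CPM in both libraries against 3.24 and 4.25, and Pgam2, the muscle phosphoglycerate mutase, 171 and 165 against 12.4 and 18.3. Of 15 imprinted or noncoding genes, 3 were, with Meg3, a noncoding RNA, at 1999 and 2406 CPM against 824 and 836. Acta2, the smooth muscle actin that early myotubes also make, had 1419 and 1670.5 CPM against 323 and 332, and Mstn, the growth inhibitor myostatin, 31.7 and 32.4 CPM against 9.71 and 5.55. Of 15 genes of the extracellular matrix, 1 was past 2-fold lower and none higher, against 0.42% and 3.64% of all genes. This was the basement membrane collagen Col4a1, which had 105 and 94.9 CPM against 216 and 213.

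Over all other cells of their library, 571 of 14572 genes (3.92%) were at least 2-fold higher in the myoblasts of both libraries and 1435 (9.85%) lower. The 10 highest were Ttn, Mybph, Gjd4, Gm28653, Trim54, Neb, Myh3, Myoz2, Mymk and 2310002L09Rik. Besides sarcomere genes they hold Gjd4, a connexin, at 14.3 CPM (WT) and 12.2 CPM (KO) myoblasts with 2 UMIs in all other WT cells together, and Trim54, a ubiquitin ligase of muscle, at 17.8 and 24.0 CPM. The annotated but unnamed genes Gm28653 (77.3 and 100.1 CPM) and 2310002L09Rik (50.7 and 51.5 CPM) followed the same pattern, with 7 and 3 UMIs in the other WT cells.

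The myoblasts were far from uniform. Ttn per cell had a median of 299.7 CPM in WT and 441 CPM in KO, an upper quartile of 1463 and 2079 and a maximum of 10654 and 14935, and the lower quartile was 0 in both. The 10% of cells with the most Ttn held 57.3% of its UMIs in WT and 63.1% in KO. For Acta1 the median cell had none, the 5 WT cells with most of it held 41.8% of its 5250 UMIs, and the 5 KO cells 25.2% of 11047.

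To describe this spread, the myoblasts of each library were divided by 1 or more UMIs of Mymx and 5 or more UMIs of Acta1, a division chosen after their values had been seen. In WT, 47 cells (30.9%) had neither, 64 (42.1%) Mymx only, 26 (17.1%) both and 15 (9.87%) Acta1 only. In KO these were 100 (30.3%), 149 (45.2%), 51 (15.5%) and 30 cells (9.09%). The makeup was alike in the libraries, with overlapping intervals for every group. Cells near the Acta1 limit were few, with 8 WT and 12 KO myoblasts at 3 to 7 UMIs, while 93 and 208 had none and 34 and 68 had 20 or more. The groups had median depths of 23574, 22458.5, 26179.5 and 17352 UMIs in WT and 20104, 17433, 23536 and 16692 in KO, and at these depths a missing UMI of Mymx does not show that a cell lacked the transcript.

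**Figure D2:**
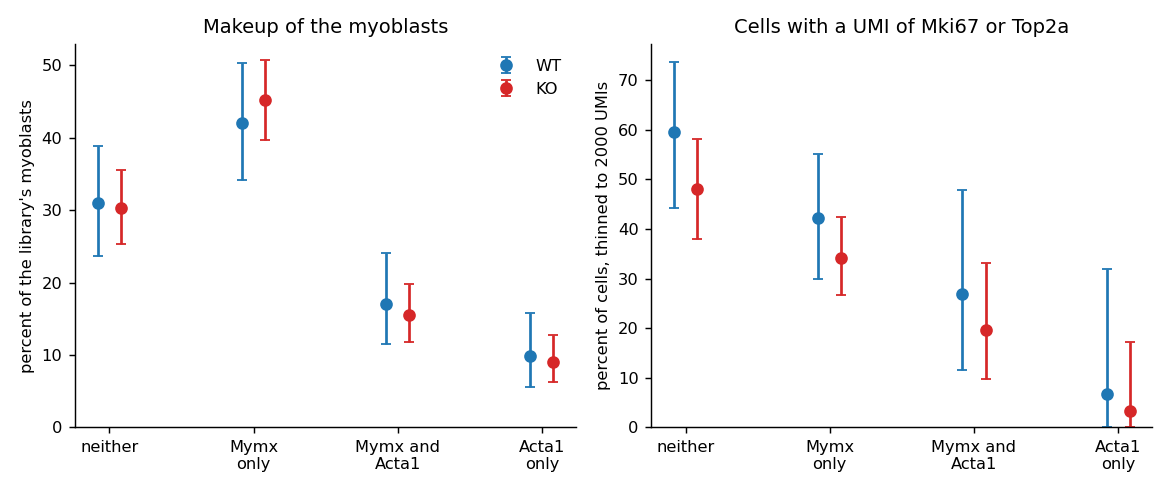
Left, percent of a library's myoblasts in each of the 4 groups made by Mymx and Acta1 UMIs, for WT (blue) and KO (red); right, percent of the cells of each group with a UMI of Mki67 or Top2a after thinning to 2000 UMIs; points are shares and bars 95% binomial intervals. The makeup of the libraries overlaps in every group, and the share with a proliferation transcript runs from 59.6% in WT and 48.0% in KO in cells with neither gene to 6.67% and 3.33% in cells with Acta1 only.

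Cells with neither gene still had progenitor transcripts. Pax7 stood at 69.3 CPM (WT) and 47.2 CPM (KO) there, and at 17.3 and 18.9 CPM in cells with Mymx only. Myod1 had 137 CPM in WT cells with neither gene and 307 with Mymx only, and 173 and 415 CPM in KO, and Mymk 3.19 and 83.0 in WT and 7.81 and 111 in KO. The 10 genes that lay highest with Mymx only over neither, in both libraries, were Sept4, Chrna1, Tnnt2, Actc1, Mymk, Myh3, Myl1, Myl4, Sel1l3 and Mylpf, so the acetylcholine receptor subunit, troponin and actin stood beside the fusion gene Mymk. Actc1 had 82.1 and 1982 CPM in WT and 195 and 2887 CPM in KO, and Chrna1 0 and 44.3 CPM in WT and 1.95 and 60.5 CPM in KO. Pax7, Meox1, Hey1 and Tbx3 were among the 10 that lay lowest. With Mymx part of the division, differences in genes that vary with it are a description only.

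Most contractile transcripts lay in the cells with Acta1, a gene of this list that also made the groups. In cells with Acta1 only it had 8614 CPM in WT and 6934 CPM in KO. The contrast is thus partly set by the division and is a description only. The summed contractile level was 2374 CPM in WT cells with neither gene, 6711 with Mymx only, 57261 with both and 81703 with Acta1 only, and in KO 3220, 10315, 66640 and 82832 CPM. Tnnc2 had 15.8 CPM in WT and 35.8 CPM in KO with Mymx only and 2535 and 2582 with both, and Tcap, which caps titin at the Z-disc, 0 and 1.16 and then 215 and 277. The 10 highest with both over Mymx only were Itgb1bp2, Mustn1, Tcap, Myh7, Tnnc2, Trdn, Myh8, Sln, Prr32 and Casq2, and the 10 lowest Sox8, Eya2, Cdc25c, Fam159a, Grasp, Nr2f1, Igf1, Epha4, Cbx2 and Rcor2. Sox8, a factor known to restrain myoblast differentiation, had 24.4 CPM in WT and 47.1 CPM in KO with Mymx only and 2.56 (2 UMIs) and 4.03 with both, and Igf1, a growth factor, 60.6 and 36.1 against 5.11 and 9.22.

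Cells with Acta1 only had the highest summed contractile level and, without a UMI of Mymx by their definition, still held Mymk. Mymk stood at 533 CPM (WT) and 324 CPM (KO) there, Mylpf at 13773 and 14052, and Mb, the oxygen store myoglobin, at 235 and 386 against 63.9 and 195 with both genes. Over the cells with both genes, the highest was Pnmt, which encodes the enzyme that makes adrenaline, with 24.3 and 191 CPM in WT and 53.6 and 211 CPM in KO. Tagln, an actin-binding protein of smooth muscle and early striated muscle, had 54.2, 26.0, 148 and 323 CPM through the 4 groups in WT and 94.9, 9.60, 262 and 518 CPM in KO, thus lowest with Mymx only in both. Genes of DNA synthesis (Dut, Tipin) and of lipid synthesis (Cyp51, Scd2) were among the 10 lowest. Only 15 WT and 30 KO cells stand behind these values.

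**Figure D3:**
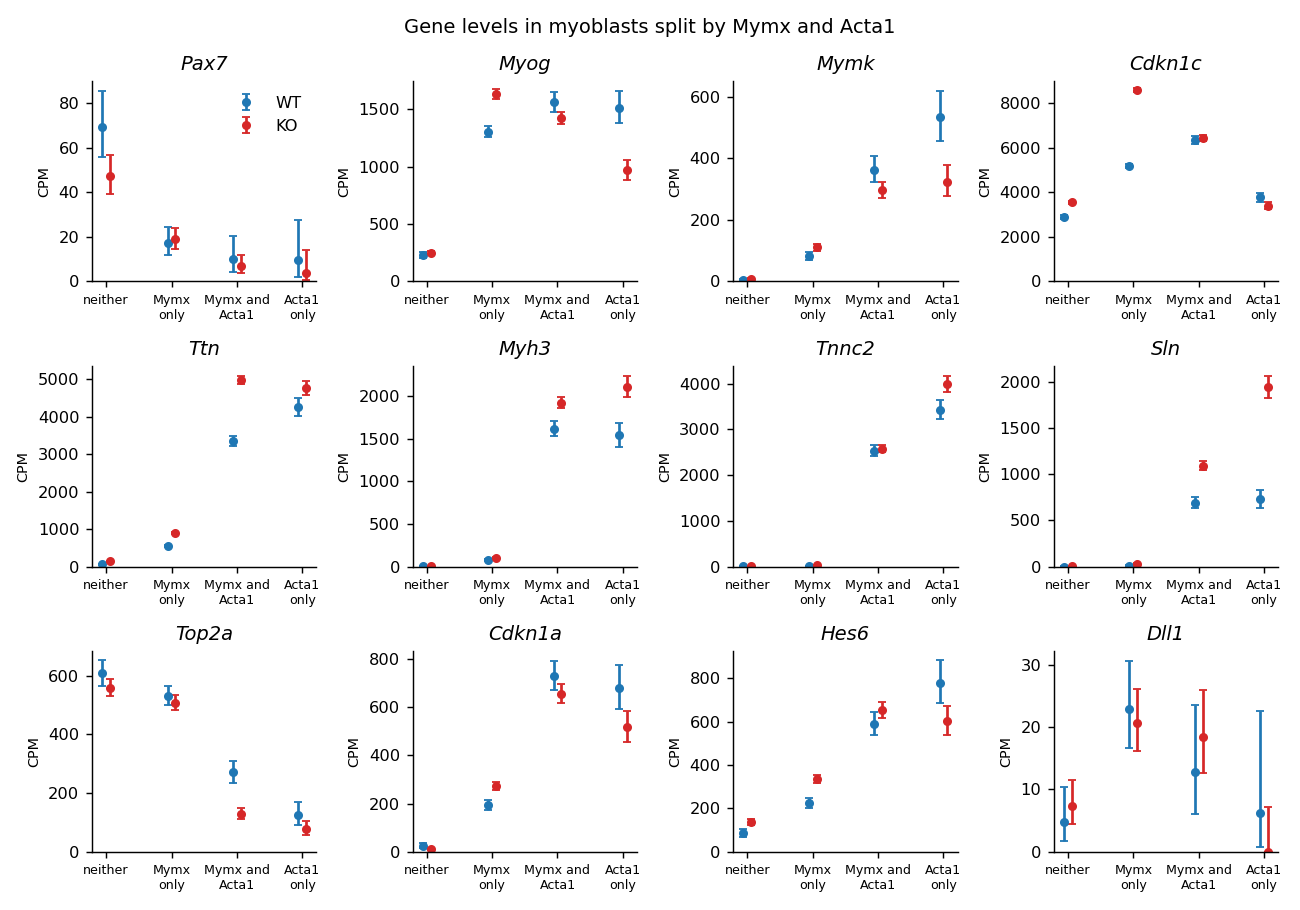
Levels in CPM, with 95% Poisson intervals, of 12 genes in the myoblasts with neither gene, with Mymx only, with Mymx and Acta1 and with Acta1 only, for WT (blue) and KO (red), each panel on its own axis from 0. Pax7 is highest in cells with neither gene, at 69.3 CPM (WT) and 47.2 CPM (KO), Dll1 in cells with Mymx only, and the sarcomere genes in cells with Acta1.

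Transcripts of division were fewest in the cells with Acta1 only, and Cdkn1a was lowest in the cells with neither gene. Cdkn1a had 25.5, 193, 729.6 and 678 CPM through the 4 groups in WT and 9.76, 272, 654 and 516 CPM in KO, and Top2a 609, 532, 271 and 126 in WT and 558, 509, 130.2 and 77.6 in KO. Thinned shares of cells with Mki67 or Top2a were 59.6, 42.2, 26.9 and 6.67% in WT and 48.0, 34.2, 19.6 and 3.33% in KO. The summed level of G2 and mitosis was 3605, 3769.8, 2119 and 634 CPM in WT and 3515, 3235, 656 and 599 CPM in KO. Other genes of exit had other orders. Gadd45g had 58.2, 122, 52.4 and 37.7 CPM in WT and 63.3, 201, 44.4 and 48.5 CPM in KO, and Cdkn1c had 2896, 5193, 6349 and 3775 CPM in WT and 3556, 8612, 6452 and 3395 CPM in KO, with the highest level in the middle groups of each library. Dll1 was likewise highest with Mymx only, at 22.9 CPM (WT) and 20.7 CPM (KO), against 4.78 and 7.42 with neither gene. From neither gene to Acta1 only, Hes1 had 153, 106, 60.1 and 25.1 CPM in WT, and Meg3 751, 967, 4346 and 7509. In the WT cells with both genes, 5 of 26 held 81.5% of the UMIs of G2 and mitosis, and in KO 5 of 51 held 68.5%.

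Between the libraries, the myoblasts differed in few genes by 2-fold or more. Of 10192 genes with at least 50 UMIs in the myoblasts of both libraries together, 88 (0.863%) were at least 2-fold higher in KO and 122 (1.2%) lower, with a median log2 ratio of -0.03 over all genes. These counts were 16 and 25 after thinning to 2000 UMIs and 205 and 207 with a selection at 1 UMI. Of the same genes, 46% had a ratio above 0 and 54% below, and the interval lay above 0 for 11.5% and below 0 for 15.1%. The counts include 5 genes of the Y chromosome and Xist. Since the libraries differ in sex as well, ratios are given for progenitors and the other cells beside those of the myoblasts. All 3 come from the same libraries and are not independent.

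Many of the largest differences were shared by all cells of the libraries. Xist and the Y genes, given above, were left out of the ranking. Among the 10 lowest of the remaining genes in KO were Hist1h2ap, Gm10076, Usp50, Nme2, Pdgfrb, Mt1, Hist1h2br, Hbb-bh1 and Gstp1. Hist1h2ap, a histone gene, was lowest of these, with log2 ratios of -5.11 in myoblasts, -5.51 in progenitors and -5.15 in the other cells, and Gm10076, Usp50, Nme2 and Gstp1 likewise lay between -4.38 and -2.11 in all 3 populations. The gene tables deposited with the libraries were identical, but whether both libraries were counted in the same way, and how reads of gene families such as the histones were assigned to single genes, was not tested, and these values are uncertain. For Hbb-bh1, an embryonic globin, 309 of the 464 WT UMIs lay in 1 cell, and for Mt1, a metallothionein, 25 of 48.

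Pdgfrb, the deleted gene, still had some UMIs in KO myoblasts. It had 17.1 (13.4 to 21.5) CPM in WT and 1.94 (1.11 to 3.15) CPM in KO myoblasts, with a UMI in 39 of 152 and 13 of 330 cells, a log2 ratio of -3.14 (-4.02 to -2.35). In progenitors the ratio was -2.28 and in the other cells -2.54. Which part of the transcript the deletion removes was not tested, and the 3′ reads need not lie in it. No level of Pdgfrb in free RNA is given here, so its KO UMIs need not come from the myoblasts themselves. Its relative Pdgfra was lower in KO myoblasts too, at 73.8 (65.9 to 82.4) CPM in WT and 35.8 (31.8 to 40.1) in KO, a log2 ratio of -1.05 (-1.28 to -0.81), with -0.19 in progenitors and -0.61 in the other cells. By group, Pdgfra stood at -0.60 (-0.99 to -0.21) with neither gene and -1.59 (-1.95 to -1.24) with Mymx only. With both genes it was -0.44 (-1.09 to 0.23). Its ratio ran from -1.40 to -0.81 over the alternatives, so it was not past 2-fold under all of them. The ligand Pdgfa, which muscle makes, had 149 and 173 CPM, a log2 ratio of 0.21 (0.08 to 0.35). Of the 19 genes in the list of growth factors and their receptors, Pdgfrb and Pdgfra were the 2 past 2-fold, and the median was -0.10. Of all genes, 0.863% were at least 2-fold higher in KO and 1.2% lower.

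With the Y genes left out, the 10 highest in KO were Pf4, Enox2, Clec14a, AY036118, Lypd1, Myom2, Rflna, Myocd, Gata2 and 1500015A07Rik. Genes entered by their UMIs summed over both libraries, and the KO myoblasts held 8248472 UMIs in all against 4320594 in WT. Clec14a (4 UMIs in WT and 47 in KO), Lypd1 (5 and 48) and Myocd (6 and 49) thus entered mainly through KO, where they were high. Which genes could rank here is partly set by this limit. Enox2, AY036118 and 1500015A07Rik were higher in KO in every population, with log2 ratios in myoblasts of 2.75, 2.41 and 2.02 and in the other cells of 2.23, 2.25 and 2.18. For Pf4, a platelet and macrophage gene, 131 of the 138 KO UMIs lay in 1 cell, so that its value rests on that cell. Gata2, a factor of blood cells, had 62 KO UMIs in 12 cells, 24 of them in 1 cell, and its log2 ratio of 2.02 was 0.75 without cells that held markers of another type and -0.77 with a selection at 1 UMI. Clec14a, an endothelial gene, had 4 UMIs in WT and 47 in 31 KO myoblasts, a log2 ratio of 2.62. In progenitors the ratio was 2.08 (-0.04 to 5.26), from 2 WT and 14 KO UMIs, and in the other cells 0.38. Emcn and the rest of the endothelial markers summed to the 2.31 and 3.03 CPM given above. Myom2, the M-band protein of fast fibres, had 2.78 (1.44 to 4.85) CPM in WT and 12.7 (10.4 to 15.4) CPM in KO, a log2 ratio of 2.20 (1.33 to 3.19), and was seen only in cells with Acta1.

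Contractile genes leaned to KO as a list. Of the 40 genes, the 38 with enough UMIs each had a ratio above 0, with an interval above 0 for 29, against 46% and 11.5% of all genes. The median log2 ratio was 0.36, against -0.03 over all genes. A single one was past 2-fold, Myom2. Ttn had 1187 CPM in WT and 1763 in KO (0.57, 0.53 to 0.62), Neb 421 and 629 (0.58, 0.50 to 0.66) and Myl4 673 and 963 (0.52, 0.46 to 0.58). Mybph (0.04, -0.10 to 0.18), Actc1 (0.08, 0.05 to 0.11) and Acta1 (0.14, 0.09 to 0.19) were among those that differed least. The list had medians of 0.28 in progenitors, where genes such as Myh3 had only the few UMIs given above, and 0.33 in the other cells of the same libraries. Free RNA held 100.2 CPM of Actc1 in WT and 144 CPM in KO, and its part in these medians was not tested.

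The lean of this list was smaller under some other settings, and its median turned below 0 after thinning. Over all alternatives the median ran from -0.04 to 0.47. It stayed near the value given under 11 of them, moved under 2 and reversed under 1. The median ratio was 0.18 as a mean of per-cell CPM, where Actc1 and Acta1 turned to -0.04 and -0.18, 0.16 over cells with under 5% mitochondrial UMIs, where Actc1 turned to -0.18, and -0.04 over cells thinned to 2000 UMIs before the selection, where Acta1, Mylpf and Myh3 turned to -0.38, -0.15 and -0.02 and Ttn stood at 0.08. Within the groups made by Mymx and Acta1 it was 0.46 over 12 genes with neither gene, 0.64 with Mymx only (29 of 30 genes above 0), 0.37 with both (35 of 38) and 0.11 with Acta1 only (22 of 37). These medians rest on unequal numbers of genes, and their differences were not tested. The share of all genes above 0 within each group is not given here, so these counts cannot be set against it.

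**Figure D4:**
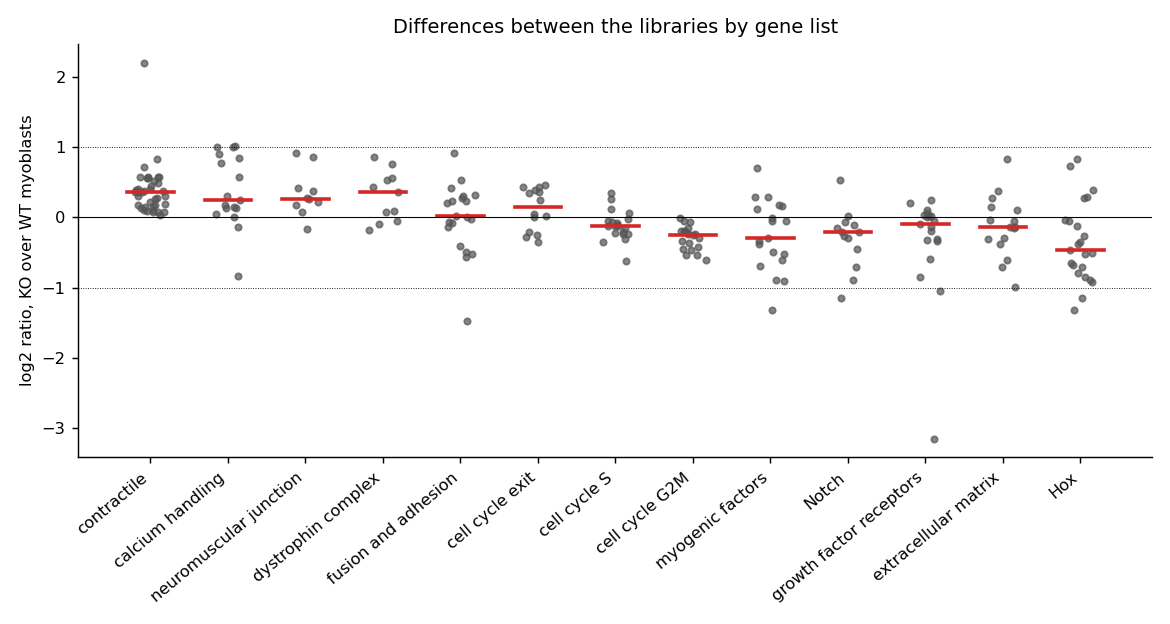
Log2 ratios of KO over WT in the myoblasts for each gene with at least 50 UMIs (grey points), by gene list, with the list's median (red line); dotted lines mark 2-fold. Contractile genes lie above 0, with a median of 0.36, and genes of G2 and mitosis and most Hox genes below, with medians of -0.25 and -0.46.

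The lists of calcium handling, the nerve-muscle junction and the dystrophin complex had medians above 0 as well. Over all genes the median was -0.03, and 46% had a ratio above 0. Calcium handling had a median of 0.25 (15 of 17 above 0), with Sln at 182 CPM (WT) and 363 CPM (KO) (1.00, 0.88 to 1.11, but 0.05 after thinning to 2000 UMIs), Trdn at 32.4 and 58.1 (0.84, 0.57 to 1.12) and Jph1, a junctophilin, past 2-fold at 9.03 and 18.3 (1.02, 0.50 to 1.57). The junction list had a median of 0.26 (9 of 10 above 0) and the dystrophin complex of 0.36 (8 of 11), with Dmd at 0.86 (0.45 to 1.27). Among genes of lists with medians near 0, Mb had 30.5 and 67.7 CPM (1.15, 0.87 to 1.43) and Cav3 a ratio of 0.91 (0.58 to 1.25), and after thinning these ratios were 0.79 and 0.37. Mymk did not differ beyond counting error, at -0.13 (-0.28 to 0.01), nor did Chrna1 at 0.07 (-0.13 to 0.27).

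Cdkn1c was higher in KO in each population, but not in every group of the myoblasts. It had 4631 (4567 to 4695) CPM in WT and 6261 (6208 to 6316) CPM in KO myoblasts, a log2 ratio of 0.44, beside 0.43 in progenitors and 0.51 in the other cells. By group, its ratio was 0.30 (0.24 to 0.35) with neither gene and 0.73 (0.70 to 0.76) with Mymx only. With both genes it was 0.02 (-0.03 to 0.07), and with Acta1 only -0.15 (-0.26 to -0.05). Kcnq1ot1, the antisense noncoding RNA of the same imprinted domain, had 926 and 1183 CPM (0.35, 0.30 to 0.41), beside 0.66 and 0.54. Over all myoblasts Cdkn1a was alike in the libraries, at 0.04 (-0.06 to 0.15). Within the groups made by Mymx and Acta1 its ratio ran both ways. It was -1.39 (-2.20 to -0.59) with neither gene, 0.49 (0.32 to 0.67) with Mymx only, -0.16 (-0.30 to -0.01) with both and -0.39 (-0.66 to -0.13) with Acta1 only.

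Genes of G2 and mitosis were lower in KO myoblasts. All 20 had a ratio below 0, 14 with an interval below 0, where 54% and 15.1% of all genes did. The median was -0.25, against 0.11 in progenitors and 0.00 in the other cells. Aurkb, the mitotic kinase, had 67.6 CPM in WT and 44.6 CPM in KO (-0.60, -0.82 to -0.37), and Ube2c, of the ubiquitin pathway of mitotic exit, 517 and 375 (-0.46, -0.54 to -0.38). Of the 20 genes of S phase 4 were above 0, with a median of -0.12. By group, the median of G2 and mitosis was -0.06 with neither gene, -0.17 with Mymx only and -1.66 over 18 genes with both, where 5 WT cells held most of the UMIs as given above.

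Most early factors and Notch genes had ratios below 0 in KO myoblasts. The myogenic factors had a median of -0.30 with 6 of 19 above 0, where 46% of all genes lay above 0 and 54% below. Eya1, a cofactor of homeobox factors of muscle, had 23.1 (18.8 to 28.2) CPM in WT and 9.34 (7.37 to 11.7) CPM in KO (-1.31, -1.76 to -0.87), the only one past 2-fold, Msc, a repressor of the helix-loop-helix family, 51.2 and 27.3 (-0.91, -1.18 to -0.63) and Tcf15, a factor of the somite, 43.7 and 23.5 (-0.90, -1.19 to -0.60). In progenitors the ratios were 0.18 for Eya1, 1.04 for Msc and -0.93 for Tcf15, so the 3 genes did not run alike. Eya1 was no longer past 2-fold at -0.21 over cells with under 5% mitochondrial UMIs and at -0.63 with a selection at 1 UMI, where Msc stood at -0.11 and Tcf15 at -0.17. Myod1 stood at 286 and 320 CPM, and turned to -0.13 over cells with under 5% mitochondrial UMIs and to -0.08 after thinning. Of the Notch genes, Heyl (-1.15, -1.62 to -0.68) was past 2-fold, though not over cells with under 5% mitochondrial UMIs (-0.79), Hes1 had -0.70 (-0.89 to -0.52) and Hey1 -0.89 (-1.41 to -0.36), while the ligand Dll1 stood at 14.6 and 14.8 CPM. The Notch list had a median of -0.21 with 2 of 13 above 0, against the same 46% of all genes.

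The collagens Col1a1, Col1a2 and Col3a1 had ratios below 0 in all populations, with Col1a1 at 171 CPM (WT) and 86.3 CPM (KO) myoblasts (-0.99, -1.14 to -0.84), beside -1.18 in progenitors and -0.85 in the other cells. In myoblasts Col1a2 stood at -0.60 and Col3a1 at -0.71, whereas Col2a1, the collagen of cartilage, was higher in KO myoblasts (0.58, 0.42 to 0.74). The direction of Col1a1 turned to 0.14 without myoblasts that held 3 or more UMIs of another type's markers, and to 0.31 over cells with under 5% mitochondrial UMIs. The medians of the lists not yet given were 0.15 for cell cycle exit, 0.02 for fusion and adhesion, -0.02 for energy metabolism, -0.07 for imprinted and noncoding genes, -0.14 for the matrix and 0.10 for smooth muscle and early actin genes. Eno1, a glycolytic enzyme, had 456 and 230.1 CPM (-0.99, -1.08 to -0.90), with -1.10 and -0.94 in the other populations.

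Most Hox genes, whose combination marks the position of a somite along the body axis, had ratios below 0 in KO myoblasts. Of 23 genes, 5 were above 0 and the median was -0.46, with an interval below 0 for 10 and above 0 for 3, where 15.1% and 11.5% of all genes had one. The share with an interval above 0 was thus near that of all genes. Hoxc8 had 247 (232 to 262) CPM in WT and 129.8 (122 to 138) CPM in KO (-0.92, -1.05 to -0.80), Hoxa7 119 and 66.6 (-0.84, -1.02 to -0.67) and Hoxb5 13.9 and 5.58 (-1.32, -1.90 to -0.74). Hoxc10, which marks a more posterior position, had 28.9 (24.1 to 34.5) CPM in WT and 48.1 (43.5 to 53.1) CPM in KO (0.73, 0.44 to 1.04), Hoxd9 7.41 and 13.2 (0.84, 0.26 to 1.45) and Hoxc9 30.8 and 40.3 (0.39, 0.09 to 0.69). The 3 genes whose interval lay above 0 were of the groups 9 and 10, while Hoxb9 (-0.89) and Hoxd10 (-0.68) were lower. The ratio of Hoxa7 was -0.05 after thinning, that of Hoxb5 -0.66 and that of Hoxc10 1.60 over cells with under 5% mitochondrial UMIs.

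For Hoxc8 and Hoxa7 the progenitors, but not the other cells, had ratios well below 0, and Hoxb5, Hoxc10 and Hoxd9 each had the same direction in all 3 populations. Hoxc8 had a ratio of -1.13 in progenitors and -0.01 in the other cells, Hoxa7 -0.83 and 0.32, and Hoxb5 -1.27 and -0.24. Hoxc10 had 1.20 and 0.33, and Hoxd9 0.86 and 0.67. Over the list, the medians were -0.17 in progenitors and 0.24 in the other cells. Within the myoblasts the difference varied, over sets of genes that were not the same. The median was 0.31 over 15 genes in cells with neither gene and -0.94 over 21 genes in cells with Mymx only (2 above 0). It was -0.06 over 7 genes in cells with both and 0.10 over 3 genes in cells with Acta1 only. Hoxc10 varied as well, at 1.46 (0.89 to 2.08) with neither gene and -0.24 (-0.65 to 0.18) with Mymx only. With both genes it was 2.22 (1.23 to 3.39), where its WT level was 11.5 CPM. Among cells with Mymx only, 5 of 64 WT cells held 45.7% of the Hox UMIs against 22.7% for 5 of 149 KO cells. Markers of another type were seen in 26.6% of these WT and 14.1% of these KO cells, and their part in the ratios was not tested.

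**Figure D5:**
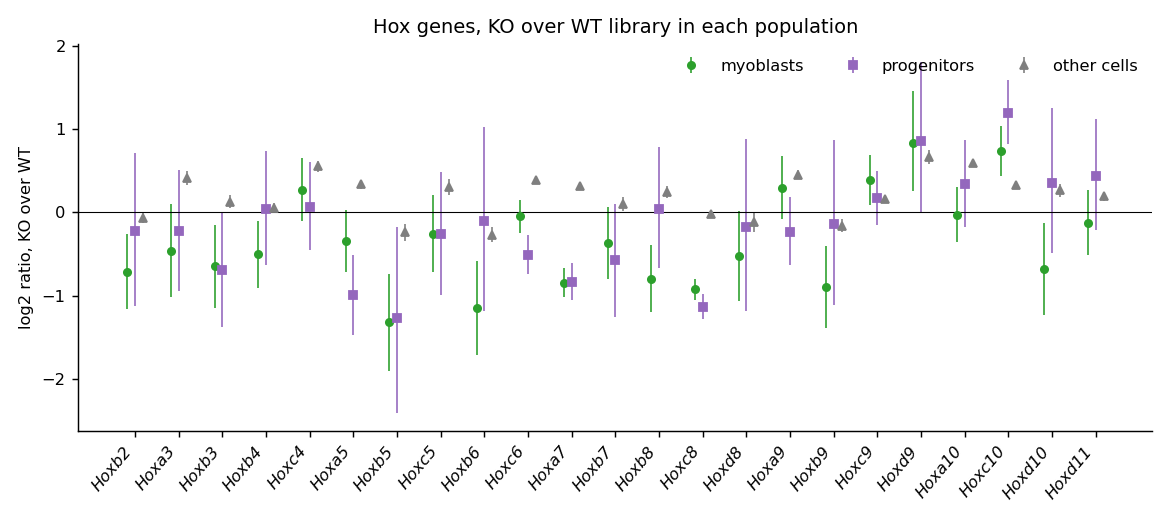
Log2 ratios of KO over WT for 23 Hox genes, ordered by their group number, in myoblasts (green circles), progenitors (purple squares) and the other cells (grey triangles), with 95% intervals of counting error. Hoxc8 and Hoxa7 lie below 0 in myoblasts and progenitors, at -0.01 and 0.32 in the other cells, and Hoxc10 lies above 0 in all 3, at 0.73 in myoblasts.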

How the data were processed

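Whole AGMs of WT and KO embryos at E11 were profiled cell by cell on the 10x Chromium 3′ platform, 1 library for each genotype. The authors deposited raw UMI counts of every gene and barcode, without normalization or calling of cells. The submitters' processing notes name Cell Ranger 3.1.0 and the builds GRCm38 and mm10. Here barcodes with at least 2000 UMIs and under 10% mitochondrial UMIs were kept, which leaves out small or damaged cells, and doublets were kept, with their removal as an alternative. UMIs were summed over myoblasts, over progenitors and over all other cells of a library, which does not include cells with 1 UMI of Myog or Mymx, and scaled to CPM, so that deep cells weigh more.

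Genes entered a comparison with at least 50 UMIs summed over its sides, so a gene could enter mainly through the side where it was high. A count of 0 was set to 3 UMIs in ratios, and a gene counted as higher or lower past a log2 ratio of 1. Intervals are at 95%. The 2 libraries held 179743201 and 174597654 UMIs. Genes named are those of the gene lists, the 10 highest and 10 lowest of each comparison (over the other cells the 10 highest), and, chosen after their values were seen, the 10 genes with the largest steps between the groups made by Mymx and Acta1; a few of these are not reported here. The myoblasts, the gene lists and the comparisons were all chosen with earlier results of these data known. Aldoa and Hoxd4 (several identifiers) and Rian and Tmem8c (no entry under these symbols) were left out of the lists. Gene positions are those of GENCODE M21 (GRCm38) and promoters those of RefSeq (GRCm38.p6), 4 of 6 genes matching.

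In all, 16 alternatives were fixed with the comparisons and 2, on the Acta1 limit, added after the groups had been seen. They vary the selection, the filters, the depth, the normalization (among them TMM factors of edgeR 4.0.16 in R 4.3.3), free RNA and doublets. Ratios, intervals and thinning were tested on simulated data. The rest was computed with Python 3.11.15, numpy 2.4.6, scipy 1.17.1, pandas 2.3.3 and scikit-learn 1.9.0.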

Additional observations from a re-analysis of the deposited data

Results flagged for a closer look

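For 4 genes the difference of KO from WT ran one way in the myoblasts and the other way in the other cells, each by at least 0.5 on the log2 scale with intervals that leave out 0. Ache, the esterase of the nerve-muscle synapse, had a log2 ratio of 0.85 in myoblasts and -1.21 in the other cells, Actg2, an actin of smooth muscle, 1.30 and -0.71, Tagln 0.63 and -0.67, and Meox1, a factor of the somite, -0.52 and 0.56. In myoblasts Actg2 had 3.01 CPM (WT) and 7.40 CPM (KO), with a UMI in 3.29% and 3.64% of them. With 1 library per genotype, these differences between populations were not tested.

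For 3 genes the difference between myoblasts with and without a UMI of Mymx ran in opposite directions in the libraries. Cdh4, a cadherin, had a log2 ratio of 0.90 in WT and -0.67 in KO, Myh8 -0.64 and 0.93, and Tnnt3, the troponin T of fast muscle, -0.80 and 0.66. These differences were not tested either.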

How the results depend on the processing

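No paired analysis was possible because each genotype had 1 library and the labels pair no samples. The log2 ratio of the myoblast shares stayed between 1.03 and 1.38 under all alternatives that could change it, and 95 of 112 comparison values kept their direction and stayed near the value given. Genes at least 2-fold higher and lower in KO numbered 205 and 207 with a selection at 1 UMI, 16 and 25 after thinning to 2000 UMIs, 268 and 283 at a minimum of 20 UMIs per gene and 17 and 41 at 200, 213 lower with per-cell CPM averaged, and 135 higher after free RNA was subtracted. The contractile median of KO over WT was 0.16 below 5% mitochondrial UMIs, 0.18 with per-cell CPM averaged and -0.043 after thinning, and it reached 0.465 at the highest. Thinning left 4 WT and 12 KO progenitors, against which the contractile medians were 1.70 and 3.23 and those of the cell cycle 0.48 and 2.78, where -0.40 and -0.64 were found without thinning.

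Of 51 single genes, 572 of 590 values kept their sign. Of those that turned, 15 were of genes whose interval had left out 0: Gata2 (-0.77, selection at 1 UMI), Pf4 (-1.41 at 3 UMIs and -1.15 at 5000 UMIs per cell), Actc1 (-0.18), Myod1 (-0.13), Col1a1 (0.31) and Meg3 (-0.014) below 5% mitochondrial UMIs, Acta1 (-0.38), Mylpf (-0.15), Myh3 (-0.025), Myod1 (-0.076) and Meg3 (-0.28) after thinning, Col1a1 (0.14) without cells with markers of another type, and Actc1 (-0.040) and Acta1 (-0.18) with per-cell CPM averaged. The shares of the groups made by Mymx and Acta1 stayed alike with Acta1 at 2 or 10 UMIs. The causes were not tested. Counting error is wide for the groups of 15 to 30 cells and for genes of a few UMIs.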
